A study of Mus musculus with 14 samples.

Results

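The cell division genes examined here are 40 genes whose products copy DNA or divide the copied chromosomes. They were taken by symbol from the count table of the series, which lists 35327 gene symbols. All 40 symbols were found, and all 40 passed the filter on low counts that left 20939 genes for testing. By the role of the protein, 18 were treated as replication genes and 22 as mitosis genes. The replication genes comprised 9 for origin licensing and the helicase (Mcm2, Mcm3, Mcm4, Mcm5, Mcm6, Mcm7, Cdc6, Cdt1 and Gins2), 4 for nucleotide supply and the sliding clamp (Rrm1, Rrm2, Tyms and Pcna), 2 for copying the chromatin (Hells and Uhrf1) and 3 that control entry into S phase (E2f1, Ccne1 and Ccne2). The mitosis genes comprised 7 that control entry (Cdk1, Ccna2, Ccnb1, Ccnb2, Plk1, Aurka and Foxm1), 13 that act on chromosomes and the spindle (Mki67, Top2a, Aurkb, Birc5, Kif11, Kif23, Kif20a, Bub1, Bub1b, Tpx2, Nusap1, Cenpe and Cenpf) and 2 that act at its exit (Cdc20 and Ube2c).

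Polyadenylated RNA from sections of frozen neck skin of female C57BL/6J mice was sequenced in 14 libraries, 1 mouse per library according to the study's design. Wild-type skin labelled untreated, at 6 weeks of age, gave 2 libraries. Their names differ only by a suffix, so that they are separate mice rests on the design text alone, and whether vehicle was applied is not stated. The other 12 libraries came from skin that received MC903 (the vitamin D analogue calcipotriol, which induces a dermatitis when painted on skin) daily for 6 days, 1 nmol in 100 µL. In the antibody experiment, wild-type mice of 6 weeks received 20 µg of isotype control antibody (3 libraries) or of MAR1 (3 libraries) intraperitoneally every other day, with 3 injections before MC903. MAR1 is an antibody against FcεRIα, part of the high-affinity receptor for IgE, and serves to deplete basophils. In the genetic experiment, mice of 6 to 7 weeks received MC903 without injections and carried either Il4ra fl/fl alone (3 libraries) or Pdgfra-Cre with Il4ra fl/fl (cKO, 3 libraries). Pdgfra-Cre deletes the floxed Il4ra, the alpha chain of the receptor for interleukins 4 and 13, in cells that express Pdgfra, such as fibroblasts, so other cells of a cKO mouse still hold the gene. Every comparison with untreated skin therefore differs in more than MC903, by the injections or by the floxed alleles.

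A dividing cell first licenses its replication origins with the MCM ring and then, as cyclin E activates its kinase and E2F factors are released from the retinoblastoma proteins, copies its DNA. Later, cyclins A and B with Cdk1 start mitosis, and kinesins, Aurora kinases and the spindle checkpoint separate the chromosomes. Transcription follows the same order: E2F factors bind promoters of replication genes, whereas many mitosis genes are repressed in resting cells by the DREAM complex and activated by B-Myb and Foxm1 through a promoter element called CHR, often beside CCAAT boxes. In skin the dividing cells are mainly basal keratinocytes and hair follicle cells, and basal keratinocytes divide more in many forms of dermatitis.

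The promoters of the members were read first, because the comparison of replication with mitosis genes rests on this known difference in control. RefSeq start sites on GRCm38.p6 gave 34 promoters, from 250 bases before to 50 bases after the start, for 32 of the 40 members. Mcm4, Gins2, Ccne2, Ccna2, Foxm1, Aurkb, Kif20a and Tpx2 were not in the table used. On either strand, and with overlapping matches counted, 12 of 17 replication promoters (70.6%) held an E2F word (either TTCCCGC or TTCGCGC or TTGCCGC or TTGGCGC), against 3 of 17 mitosis promoters (17.6%) and 9.57% of all 32851 promoters of that length. A CHR word (TTTGAA or TTCGAA) was in 2 of 17 replication promoters (11.8%), in 13 of 17 mitosis promoters (76.5%) and in 19.2% of all promoters. CCAAT was in 11 (64.7%) and 15 (88.2%) of them, against 37.4% of all. Both a CHR word and CCAAT were in 2 replication promoters, in 13 mitosis promoters and in 7.52% of all. These are matches of letters, not mapped sites. The sequences printed here are the 250 bases before the start, 5′ to 3′ on the gene's strand, for the 4 members of each class with the smallest p between isotype and untreated skin among those with an entry; capitals mark the searched words, and touching or overlapping words run together. The replication genes were Ccne1 (chr7:38107491-38107740, minus strand), Mcm5 (chr8:75109259-75109508, plus strand), Hells (chr19:38930740-38930989, plus strand) and Rrm2 (chr12:24708004-24708253, plus strand). The mitosis genes were Cdk1 (chr10:69352913-69353162, minus strand), Mki67 (chr7:135716380-135716629, minus strand), Kif11 (chr19:37376132-37376381, plus strand) and Birc5 (chr11:117848987-117849236, plus strand).
Ccne1: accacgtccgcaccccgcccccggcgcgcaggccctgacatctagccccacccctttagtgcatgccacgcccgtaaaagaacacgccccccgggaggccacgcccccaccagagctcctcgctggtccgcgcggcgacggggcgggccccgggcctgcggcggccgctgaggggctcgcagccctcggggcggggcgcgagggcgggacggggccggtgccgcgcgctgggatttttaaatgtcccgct
Mcm5: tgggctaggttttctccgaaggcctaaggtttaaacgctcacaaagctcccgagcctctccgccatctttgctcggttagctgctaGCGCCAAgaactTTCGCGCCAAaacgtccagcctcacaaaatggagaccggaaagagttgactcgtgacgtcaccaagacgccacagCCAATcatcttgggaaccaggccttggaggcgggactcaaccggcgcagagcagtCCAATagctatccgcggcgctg
Hells: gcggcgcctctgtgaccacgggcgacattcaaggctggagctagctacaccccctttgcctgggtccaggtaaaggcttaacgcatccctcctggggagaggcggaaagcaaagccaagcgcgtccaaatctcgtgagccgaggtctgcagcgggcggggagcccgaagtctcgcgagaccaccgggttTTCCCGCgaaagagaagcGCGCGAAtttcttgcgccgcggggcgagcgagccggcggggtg
Rrm2: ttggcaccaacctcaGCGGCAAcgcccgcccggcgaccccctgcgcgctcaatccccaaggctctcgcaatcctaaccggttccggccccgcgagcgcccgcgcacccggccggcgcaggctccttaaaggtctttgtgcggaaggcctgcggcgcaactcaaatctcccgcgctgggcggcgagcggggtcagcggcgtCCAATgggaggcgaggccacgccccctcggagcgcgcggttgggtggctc
Cdk1: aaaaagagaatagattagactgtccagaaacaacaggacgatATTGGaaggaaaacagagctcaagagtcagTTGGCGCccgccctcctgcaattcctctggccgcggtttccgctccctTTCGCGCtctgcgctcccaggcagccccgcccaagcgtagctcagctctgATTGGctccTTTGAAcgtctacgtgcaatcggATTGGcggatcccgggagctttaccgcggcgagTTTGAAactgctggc
Mki67: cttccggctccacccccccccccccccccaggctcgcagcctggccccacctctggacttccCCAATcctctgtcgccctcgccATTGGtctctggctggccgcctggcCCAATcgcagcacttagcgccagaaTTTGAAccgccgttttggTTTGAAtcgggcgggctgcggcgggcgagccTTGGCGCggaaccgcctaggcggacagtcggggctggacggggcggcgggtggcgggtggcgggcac
Kif11: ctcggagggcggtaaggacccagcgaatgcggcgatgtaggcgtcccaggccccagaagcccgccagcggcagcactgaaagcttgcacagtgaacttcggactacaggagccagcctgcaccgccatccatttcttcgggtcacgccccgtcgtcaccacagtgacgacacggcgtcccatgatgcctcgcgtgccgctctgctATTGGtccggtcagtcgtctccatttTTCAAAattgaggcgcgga
Birc5: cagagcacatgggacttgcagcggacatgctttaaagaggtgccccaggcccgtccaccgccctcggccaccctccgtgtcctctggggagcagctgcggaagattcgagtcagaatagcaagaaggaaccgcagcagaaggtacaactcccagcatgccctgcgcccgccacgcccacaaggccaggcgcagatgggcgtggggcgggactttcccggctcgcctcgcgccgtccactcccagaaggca

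Among these 8 sequences, Mcm5, Hells and Rrm2 held E2F words without a CHR word, while Kif11 held a CHR word and CCAAT without an E2F word. Cdk1 and Mki67 held all 3 kinds, each with 2 CHR words. Ccne1 and Birc5 held none of the words in the window read, and both rose after MC903 as given below.

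Before the members, the libraries themselves differed. Total counts were 34312206 to 55291463 in the untreated, isotype and fl/fl libraries, 16464897 to 30811457 in cKO and 5728921 to 10582016 in the libraries labelled MAR1. Olfactory and vomeronasal receptor genes (1984 genes), known from sensory neurons of the nose, took 3.88, 7.55 and 9.38% of counts in the MAR1 libraries and 1.49, 0.467 and 2.59% in cKO, against 0.048% to 0.439% in the other 8 libraries. Transcripts of the 13 mitochondrial genes took 0.129% to 0.344% with MAR1, 0.477% to 2.61% in cKO and 2.12% to 4.23% elsewhere. Il4ra, the targeted gene, was at 215, 146 and 176 CPM (the count relative to the TMM-scaled library total, on the usual CPM scale) in fl/fl and 70.7, 67.9 and 14.5 CPM in cKO, a log2 change of -1.81 ± 0.57 (SE; edgeR, adjusted p = 0.043). It was also lower with MAR1, at 45.8, 23.3 and 9.02 CPM against 196, 179 and 193 CPM with isotype (-2.86 ± 0.60, adjusted p = 0.002). Mcpt8, a basophil protease, was at 18.1, 31.2 and 27.4 CPM in the libraries labelled MAR1 and 6.71, 4.41 and 3.97 CPM with isotype, whereas Fcer1a, the target of MAR1, was at 5.41, 1.71 and 0.15 CPM against 31.8, 33.3 and 23.6 CPM. Of the 6 basophil markers, 2 were called higher and 2 lower with MAR1 (median log2 fold change -0.53). These markers do not agree in direction, so results under MAR1 are given for libraries so labelled. The skin genes Krt5 (180.1 to 3743 CPM) and Col1a1 (131.9 to 5095 CPM) were present in every library. In fl/fl replicates 1, 2 and 3, B cell markers made up 0.0979, 0.0218 and 0.00014% and salivary gland markers 0.109, 1.93 and 0.000563% of all counts.

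Cell division genes tended to be higher after MC903 in both control groups, with a larger median change among mitosis genes than among replication genes. Between isotype and untreated skin, 37 of the 40 members had a log2 fold change above 0, and 8 rose at a Benjamini-Hochberg adjusted p under 0.05 over all genes tested in edgeR (called below): Cdk1, Ccna2, Mki67, Top2a, Birc5, Kif11, Mcm5 and Ccne1. None fell. Over all genes tested, 3.08% were called in either direction and 1.35% were called higher and 1.72% lower. The 3 isotype libraries lay above both untreated libraries for 33 members and below both for 2, E2f1 and Kif23, against 26.2% of all genes above and 22.6% below. By class, 6 of 22 mitosis genes and 2 of 18 replication genes were called, and the median log2 fold changes were 1.44 and 0.62, beside 0.11 for all genes tested. In bulk tissue, more dividing cells and more RNA per cell cannot be told apart. The count of 8 rested on single libraries: it was 0 without untreated replicate 1 or without isotype replicate 2, 2 without isotype replicate 1 or 3, and 3 without untreated replicate 2. In the fits without isotype replicate 1, 2 or 3, 108, 110 and 132 genes of any kind were called, beside 644 with all libraries. With DESeq2 19 members were called, beside 2200 of 19067 genes. When only these 5 libraries were fitted 20 were called, beside 3553 of 17528 genes.

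When Il4ra fl/fl skin was compared with untreated skin, all 40 members had a log2 fold change above 0. Again 8 rose and none fell: Birc5, Ccna2, Ccne1, Cdk1, Mcm5, Mki67, Rrm2 and Ube2c. The background was 1.72% of genes called, 0.769% higher and 0.950% lower. For 31 members the groups did not overlap, all with fl/fl higher, against 12.6% of all genes. By class, 5 of 22 mitosis genes and 3 of 18 replication genes were called, with medians of 1.54 and 0.67 beside 0 for all genes. Both comparisons share the 2 untreated libraries, so each is given on its own. Here the count was 5 without fl/fl replicate 1 or 2, beside 342 of 20785 and 430 of 20828 genes called. It was 23 with DESeq2, beside 2125 of 20068 genes. When only these 5 libraries were fitted, 0 of all 16893 genes tested were called, members included. With only the third fl/fl library, nearly free of B cell and salivary transcripts, the mitosis and replication medians were 1.62 and 0.40, beside -0.15 for all genes. Without untreated replicate 2 they were 1.32 and 0.61, beside 0.03.

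**Figure D1:**
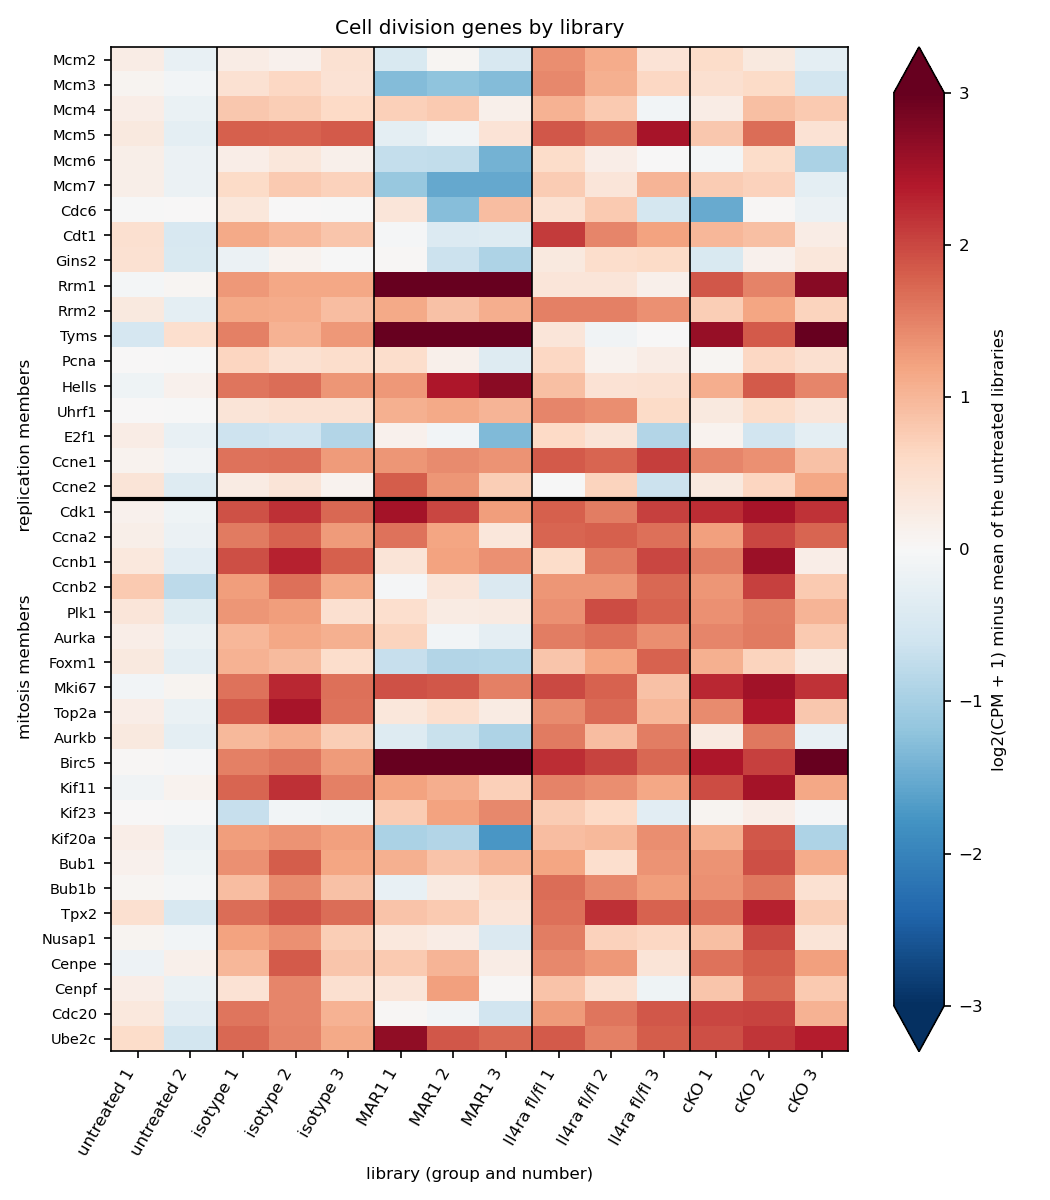
Level of each cell division gene (rows; replication genes above the line, mitosis genes below) in each of the 14 libraries (columns), as log2(CPM + 1) minus the mean of the 2 untreated libraries, with the colour scale ending at 3 and -3. Most mitosis genes are above the untreated mean in the isotype, fl/fl and cKO libraries, and Rrm1, Tyms and Birc5 are at the end of the scale in all 3 MAR1 libraries.

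Among genes for origin licensing and the helicase, 1 of 9 rose in isotype skin and 1 of 9 in fl/fl skin, in both cases Mcm5. Mcm5, a subunit of the MCM helicase ring, was at 20.7 and 13.5 CPM untreated, 60.7, 59.6 and 62 CPM with isotype, and 63.8, 55.4 and 97.9 CPM in fl/fl. It was 3.55-fold higher with isotype (log2 1.83 ± 0.42, adjusted p = 0.032) and 4.23-fold higher in fl/fl (adjusted p = 0.026), with no overlap in either comparison. None of the other ring subunits passed the test, with log2 fold changes from 0.23 to 1.12. Mcm3 was at 21.5 and 19.1 CPM untreated, 28.1, 31.9 and 27.7 CPM with isotype, and 56.9, 43.5 and 31.8 CPM in fl/fl. Mcm4 was at 27.7 and 20.5 CPM untreated, 42.8, 40.6 and 36.6 CPM with isotype, and 50.3, 41.5 and 22.5 CPM in fl/fl. For Mcm3 every treated library lay above both untreated ones, whereas for Mcm4 the third fl/fl library fell among them. Mcm6 was at 51 and 40 CPM untreated, 52.4, 57.6 and 50 CPM with isotype, and 66.6, 51.9 and 45.7 CPM in fl/fl. Mcm7 was at 34.6 and 26.8 CPM untreated, 45.6, 52.8 and 49.4 CPM with isotype, and 52.4, 39.7 and 62.5 CPM in fl/fl. Mcm6 overlapped with untreated skin in both comparisons, and Mcm7 in neither. Cdt1, which loads the ring onto origins, was at 12.7 and 6 CPM untreated, 20.5, 18.4 and 16.4 CPM with isotype, and 40.9, 26.1 and 21.6 CPM in fl/fl. Its groups did not overlap, yet it missed the threshold (log2 0.98 ± 0.42 with isotype and 1.66 ± 0.43 in fl/fl, adjusted p = 0.24 and 0.071). The ring subunit Mcm2, the loader Cdc6 and the helicase cofactor Gins2 were not called either, with log2 fold changes from -0.10 to 1.05 over both comparisons.

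Of the 4 genes for nucleotide supply and the clamp, none was called in isotype skin, and Rrm2 alone rose in fl/fl skin. Rrm2, the regulated subunit of ribonucleotide reductase, which makes deoxynucleotides, was at 18.4 and 11.8 CPM untreated, 33.6, 33.3 and 28.9 CPM with isotype, and 44.3, 44.2 and 39.6 CPM in fl/fl. The increase was 2.82-fold in fl/fl (log2 1.50 ± 0.30, adjusted p = 0.024), and the 2.11-fold difference with isotype missed the threshold (adjusted p = 0.065). Rrm1, the large subunit, was at 47.3 and 51.9 CPM untreated, 123, 113 and 112 CPM with isotype, and 64.6, 64 and 54.8 CPM in fl/fl. Tyms, which makes thymidylate, was at 16.2 and 34 CPM untreated, 68.8, 49.5 and 59.4 CPM with isotype, and 30.4, 21.7 and 23.9 CPM in fl/fl. For both, every isotype library lay above every untreated and every fl/fl library, without a call. The receptor gene shares were also larger in the isotype than in the fl/fl libraries, and larger than in untreated replicate 1 but not all larger than in untreated replicate 2. Pcna, the sliding clamp, was at 96.6 and 94.6 CPM untreated, 150.4, 132 and 137 CPM with isotype, and 147, 104 and 111 CPM in fl/fl. Its groups did not overlap, and it was not called (log2 0.55 ± 0.32 and 0.34 ± 0.31).

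Neither chromatin gene was called. Hells, a chromatin remodeller needed for DNA methylation, was at 5.83 and 7.05 CPM untreated, 21.4, 22.8 and 17.5 CPM with isotype, and 12.9, 8.95 and 9.13 CPM in fl/fl. Its groups did not overlap, with log2 1.68 ± 0.43 with isotype (adjusted p = 0.052) and 0.68 ± 0.42 in fl/fl. Uhrf1, which brings the maintenance methyltransferase to newly copied DNA, was at 14.4 and 14 CPM untreated, 19, 19.9 and 19.8 CPM with isotype, and 41.3, 39.2 and 21.6 CPM in fl/fl. It was highest in the fl/fl libraries 1 and 2, the ones with B cell transcripts. Of the genes for entry into S phase, 1 of 3 rose in each comparison. Ccne1 (cyclin E1) was at 3.17 and 2.56 CPM untreated, 10.9, 11.2 and 8.33 CPM with isotype, and 12.8, 11.9 and 15.2 CPM in fl/fl. These were increases of 3.53-fold (log2 1.82 ± 0.41, adjusted p = 0.031) and 4.63-fold (log2 2.21 ± 0.42, adjusted p = 0.018). Ccne2 (cyclin E2) was at 10.9 and 5.96 CPM untreated, 9.85, 10.9 and 8.83 CPM with isotype, and 8.11, 13.5 and 4.85 CPM in fl/fl. E2f1, an activating E2F factor, was at 20.2 and 14.8 CPM untreated, 10.9, 11.3 and 8.94 CPM with isotype, and 26.9, 22.9 and 8.98 CPM in fl/fl. Ccne2 overlapped with untreated skin in both comparisons, and E2f1 was lower in every isotype library than in either untreated one, without a call (adjusted p = 0.43).

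The 7 genes of mitotic entry did not overlap with untreated skin in either comparison, always with the treated libraries higher, and 2 of them, Cdk1 and Ccna2, were called in each. Cdk1, the kinase that drives entry into mitosis, was at 9.82 and 7.9 CPM untreated, 35.9, 43.6 and 31.2 CPM with isotype, and 33.1, 27.6 and 39.6 CPM in fl/fl. It rose 4.17-fold (log2 2.06 ± 0.37, adjusted p = 0.013) and 3.77-fold (adjusted p = 0.02). Ccna2 (cyclin A2) was at 14.3 and 10.9 CPM untreated, 39.1, 45.1 and 31.9 CPM with isotype, and 44.4, 45.9 and 41.2 CPM in fl/fl. It rose 3.07-fold and 3.48-fold (adjusted p = 0.038 and 0.034). Ccnb1 (cyclin B1) was at 9.2 and 5.6 CPM untreated, 30.3, 39.9 and 27.4 CPM with isotype, and 11, 23.2 and 32 CPM in fl/fl. Its log2 fold change with isotype, 2.13 ± 0.65, was the largest among the 40 members, but it missed the threshold (adjusted p = 0.098). Ccnb2 (cyclin B2) was at 13.2 and 3.73 CPM untreated, 18.5, 24.9 and 17.1 CPM with isotype, and 19.4, 19.6 and 25.9 CPM in fl/fl. Foxm1, the activator of mitosis genes, was at 5.58 and 3.37 CPM untreated, 10.1, 9.42 and 6.69 CPM with isotype, and 8.49, 11.2 and 17.4 CPM in fl/fl. Of the untreated libraries, replicate 2 was the lower one for both. Plk1, a kinase of the spindle poles, was at 6.34 and 3.44 CPM untreated, 13.4, 12.7 and 6.96 CPM with isotype, and 13.8, 21.2 and 18.3 CPM in fl/fl. Aurka, the Aurora kinase of the poles, was at 6.19 and 4.51 CPM untreated, 11.5, 13.1 and 12.1 CPM with isotype, and 17.3, 18.9 and 15.6 CPM in fl/fl. Ccnb2, Foxm1, Plk1 and Aurka had adjusted p from 0.054 to 0.32 over both comparisons.

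Of the 13 genes for chromosomes and the spindle, 4 rose with isotype (Mki67, Top2a, Birc5 and Kif11) and 2 in fl/fl (Mki67 and Birc5). Mki67, which coats mitotic chromosomes and is the usual marker of dividing cells, was at 16.3 and 18.3 CPM untreated, 55.1, 86.1 and 56.9 CPM with isotype, and 70.6, 61.5 and 32.7 CPM in fl/fl. It rose 3.82-fold (log2 1.93 ± 0.36, adjusted p = 0.015) and 3.18-fold (adjusted p = 0.032). Top2a, the topoisomerase that untangles chromosomes, was at 23.6 and 17.8 CPM untreated, 76.2, 118 and 65.2 CPM with isotype, and 56.6, 68.8 and 41.9 CPM in fl/fl. It was 4.18-fold higher with isotype (adjusted p = 0.029), while its 2.69-fold difference in fl/fl missed the threshold (adjusted p = 0.11). Birc5 (survivin), a subunit of the chromosomal passenger complex, was at 8.1 and 7.64 CPM untreated, 24.5, 25.9 and 20.4 CPM with isotype, and 40.3, 35 and 28.4 CPM in fl/fl. It rose 2.99-fold and 4.39-fold (adjusted p = 0.025 and 0.0099). Kif11, the motor that pushes the spindle poles apart, was at 5.83 and 6.98 CPM untreated, 23.9, 32.5 and 20.2 CPM with isotype, and 19.7, 18.6 and 15.6 CPM in fl/fl. It rose 3.99-fold with isotype (adjusted p = 0.024), and the 2.8-fold difference in fl/fl was not called (adjusted p = 0.083).

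The remaining 9 chromosome and spindle genes were not called in either comparison. Aurkb, the kinase of the passenger complex, was at 6.15 and 3.82 CPM untreated, 10.6, 11.5 and 8.83 CPM with isotype, and 16.4, 10.1 and 16.1 CPM in fl/fl. Kif20a, which carries that complex to the spindle midzone, was at 5.72 and 4.15 CPM untreated, 13, 14.1 and 12.9 CPM with isotype, and 10.2, 10.5 and 14.4 CPM in fl/fl. Both were higher in every treated library than in either untreated one. Tpx2, an activator of Aurka, was at 9.02 and 4.11 CPM untreated, 22, 25.6 and 21.9 CPM with isotype, and 21.5, 31.9 and 23.2 CPM in fl/fl. Bub1b, a protein of the spindle checkpoint, was at 5.39 and 4.89 CPM untreated, 10.6, 15.3 and 10.3 CPM with isotype, and 18.5, 15.7 and 13.7 CPM in fl/fl. These too did not overlap with untreated skin (adjusted p from 0.059 to 0.36 for the 4 genes). Kif23, a motor of the midzone needed for cytokinesis, stood apart: it was at 8.54 and 8.43 CPM untreated, 4.88, 7.95 and 7.66 CPM with isotype, and 15, 13.3 and 6.62 CPM in fl/fl, so the isotype libraries lay below and the fl/fl libraries on both sides of the untreated ones. The checkpoint kinase Bub1, the spindle protein Nusap1 and the kinetochore proteins Cenpe and Cenpf had log2 fold changes from 0.50 to 1.80. Of the 2 exit genes, Ube2c, an enzyme that tags cyclin B for destruction, was at 18.3 and 8.05 CPM untreated, 42.8, 35.8 and 27.9 CPM with isotype, and 46.1, 36.7 and 45.7 CPM in fl/fl. It was called in fl/fl (3.25-fold, adjusted p = 0.049) but not with isotype (2.69-fold, adjusted p = 0.07), and the difference between these was not tested. Cdc20, the activator of the ligase that ends mitosis, was at 10.7 and 6.46 CPM untreated, 27.5, 24.7 and 18.2 CPM with isotype, and 21.6, 27.3 and 33 CPM in fl/fl. It missed the threshold in both (adjusted p = 0.076 and 0.058).

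**Figure D2:**
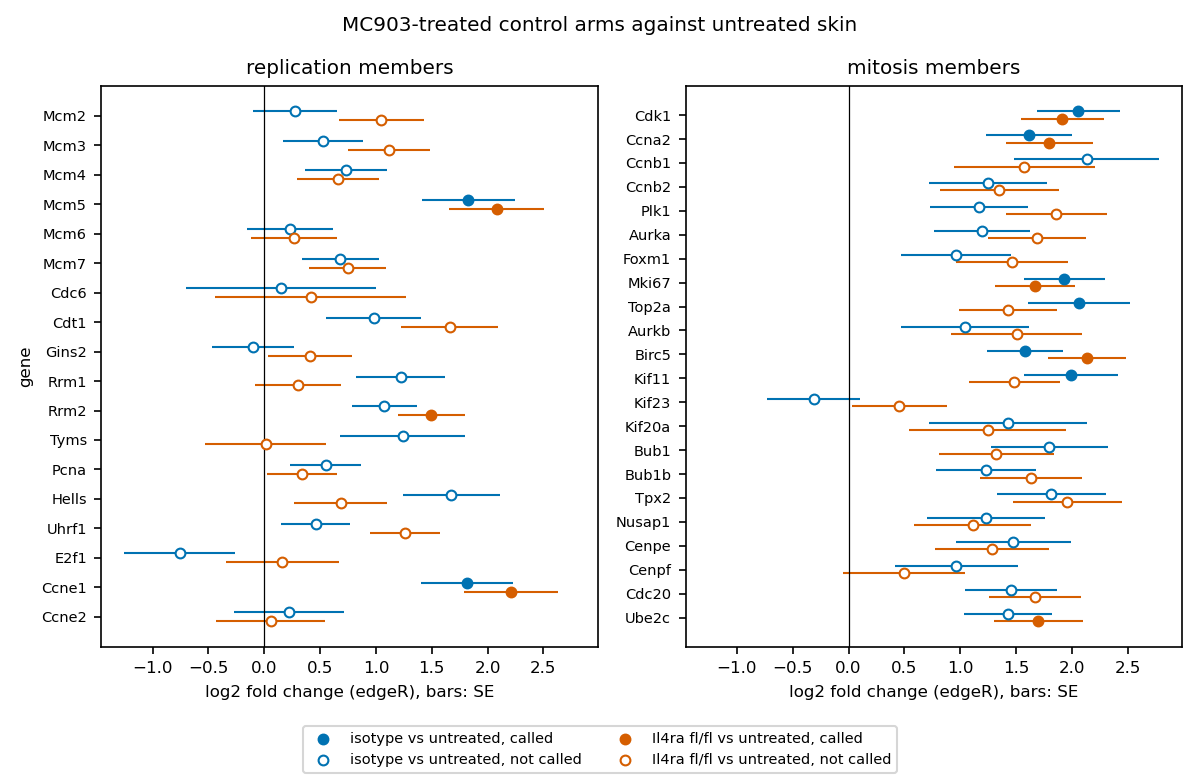
Log2 fold change ± SE (edgeR) of each replication gene (left) and mitosis gene (right) in isotype and in Il4ra fl/fl skin, each relative to both untreated libraries; filled points passed an adjusted p under 0.05. All fl/fl points are above 0, and the mitosis genes have medians of 1.44 and 1.54 against 0.62 and 0.67 for the replication genes.

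The gap between the classes was also visible within libraries. The class level, the mean of log2(CPM + 1) over the genes of a class, was 4.33 and 4.06 for replication and 3.21 and 2.80 for mitosis in the untreated libraries. With isotype the levels were 4.93, 4.91 and 4.81 for replication and 4.29, 4.59 and 4.09 for mitosis, and in fl/fl 5.17, 5.00 and 4.69 and 4.41, 4.37 and 4.31. The difference, mitosis minus replication, was -1.12 and -1.26 untreated, -0.64, -0.32 and -0.72 with isotype and -0.76, -0.62 and -0.39 in fl/fl. All 6 control MC903 libraries thus had a smaller gap than both untreated ones. In cKO it was -0.34, -0.12 and -0.82, and in the MAR1 libraries -1.04, -1.05 and -1.33, which overlapped with untreated skin. This overlap depended on Rrm1 and Tyms. Without these genes the replication level was 4.26 and 3.88 untreated and 4.35, 4.21 and 4.11 in the MAR1 libraries. The gap was then smaller in every MAR1 library than in both untreated ones. Genes of a class are not replicates, so no test was made of these differences; the genes also differ in length and level, so only changes of a class between libraries can be read.

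**Figure D3:**
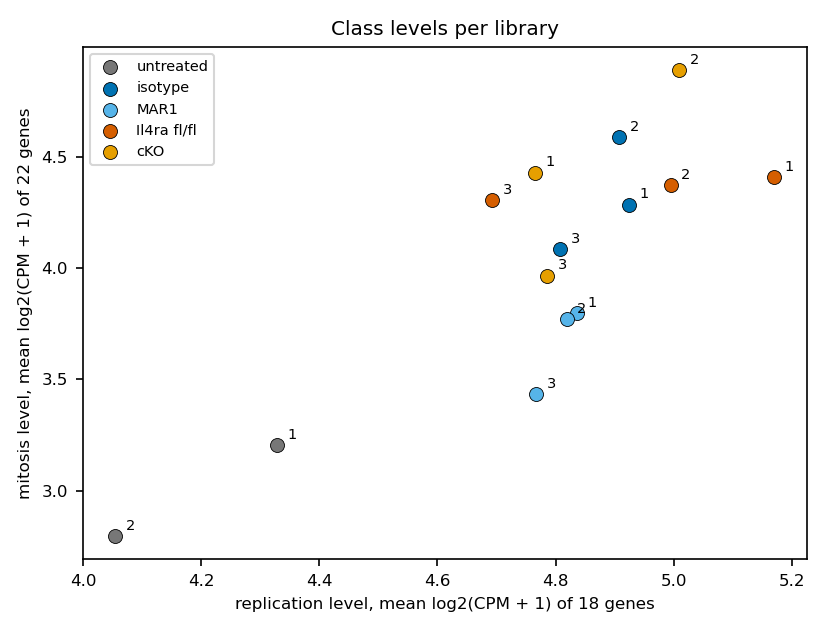
Mean log2(CPM + 1) of the 22 mitosis genes against that of the 18 replication genes, 1 point per library, coloured by group and numbered by replicate. The 2 untreated libraries are lowest on both axes, and the MAR1 libraries have replication levels of 4.77 to 4.84 but mitosis levels of 3.43 to 3.80, below those of every other MC903 library. Without Rrm1 and Tyms the replication levels of the MAR1 libraries were 4.11 to 4.35.

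Markers of several cell types also differed after MC903. The 8 basal keratinocyte markers took 1.22 and 0.503% of counts untreated, 1.7, 2.23 and 2.03% with isotype and 0.321, 1.47 and 2.4% in fl/fl. Of them 1 rose and 1 fell with isotype: Krt14 from 1967 and 853 CPM to 13910, 18940 and 16280 CPM (log2 3.54 ± 0.84) and Krt15 from 4741 and 1572 CPM to 393, 277 and 456 CPM (log2 -3.07 ± 0.48). The 10 hair matrix markers took 0.00266% to 0.0159% of counts in any library. In fl/fl none of the 8 basal keratinocyte markers rose and 1 fell. The 8 dermal fibroblast markers took 1.26 and 2.16% of counts untreated, 0.434, 0.362 and 0.36% with isotype and 0.272, 0.705 and 0.164% in fl/fl, with median log2 fold changes of -2.18 and -1.45 and 7 of 8 markers below both untreated libraries in each comparison (2 called lower with isotype, none in fl/fl). B cell markers took at most 0.00096% of counts in the untreated and isotype libraries, where the 6 of them gave no call. The part of these cell types in the changes of the cell division genes was not tested.

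Other genes of the same pathways came from lists made by role. Of 30 further replication genes, 2 rose with isotype (Dbf4, log2 1.95 ± 0.35, and Gmnn, 1.63 ± 0.36, which respectively activate and restrain origins) and none fell, with a median of 0.72. Of 35 further mitosis genes, 3 rose (Cdca3, log2 1.69 ± 0.28, Smc2, 1.92 ± 0.41, and Ncapg2, 1.61 ± 0.34, the last 2 being condensin subunits) and none fell, with a median of 1.44. In fl/fl, Dbf4 and Tk1 (thymidine kinase) rose among replication genes and Cdca3, Cenpa, Racgap1 and Cdca8 among mitosis genes, with medians of 0.81 and 1.38 and none lower. Of 7 inhibitors of cyclin-dependent kinases, Cdkn2c (p18) fell with isotype, from 109 and 89.7 CPM to 21.5, 32.5 and 25.4 CPM (log2 -1.91 ± 0.38, adjusted p = 0.02), and none was called in fl/fl. None of the 7 G1 cyclins and kinases was called in either comparison. Of 14 RB and DREAM genes, Mybl2 (B-Myb, the activating partner of the complex) rose with isotype, from 3.6 and 2.87 CPM to 14.2, 11.8 and 12 CPM (log2 1.97 ± 0.48, adjusted p = 0.042).

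Between MAR1 and isotype libraries, both treated with MC903, many members differed, as did many genes of any kind. Of the 40 members, 5 were higher (Tyms, Rrm1, Birc5, Kif23 and Ccne2) and 14 lower (Mcm3, Mcm5, Mcm6, Mcm7, Cdt1, Ccnb2, Aurka, Foxm1, Top2a, Aurkb, Kif20a, Bub1b, Tpx2 and Cdc20) in the libraries labelled MAR1. This share, 47.5%, is near the background: 49.0% of all genes were called, 22.6% higher and 26.5% lower, so nothing particular to cell division genes is read from the count. Groups did not overlap for 6 members above and 19 below, against 32.1% and 36.4% of all genes. The medians were -0.16 for replication and -0.94 for mitosis genes beside 0 for all genes. Scaling by RLE in place of TMM moved the median of all genes to 0.57, the replication median to 0.42 and the mitosis median to -0.34. Then 8 members were higher and 8 lower, beside 9991 of 20939 genes called. Under RLE, Hells, Uhrf1 and Ube2c were also called higher, and Mcm6, Cdt1, Ccnb2, Aurka, Bub1b and Tpx2 were no longer called lower. The mitosis median stayed below the replication median, while the sign of the replication median changed.

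Rrm1 and Tyms had the largest increases. Rrm1 was at 498, 825 and 1013 CPM in the 3 MAR1 libraries against 123, 113 and 112 CPM with isotype, 6.73-fold higher (log2 2.75 ± 0.36, adjusted p = 0.00027). Tyms was at 345, 838 and 1034 CPM against 68.8, 49.5 and 59.4 CPM, 12.5-fold higher (log2 3.64 ± 0.54, adjusted p = 0.00032). Together these 2 genes made up 65.8, 80.6 and 85.9% of the summed CPM of the 18 replication genes in the MAR1 libraries, against 22.5% to 25.5% with isotype, although CPM are not per length. Rrm2, which pairs with Rrm1 in the same enzyme, was at 34, 27.9 and 32.5 CPM and was not called (log2 -0.02 ± 0.25). Birc5 was at 119.9, 111 and 117 CPM against 24.5, 25.9 and 20.4 CPM (4.92-fold higher, adjusted p = 0.00027). Aurkb, the kinase of the same complex, was at 3.52, 2.72 and 2.1 CPM against 10.6, 11.5 and 8.83 CPM (3.67-fold lower, adjusted p = 0.01). Kif23 was at 15.2, 20.7 and 24.7 CPM against 4.88, 7.95 and 7.66 CPM (2.95-fold higher, adjusted p = 0.0051). Kif20a, also a motor of the midzone, was at 2.06, 2.22 and 0.752 CPM against 13, 14.1 and 12.9 CPM (7.8-fold lower, adjusted p = 0.0031). The libraries of the 2 groups did not overlap for any of these 4 genes, and their directions were the same under RLE. Ccne2 was at 31, 21.9 and 14.3 CPM, 2.28-fold higher (adjusted p = 0.039), while Ccne1, at 8.68, 9.36 and 8.87 CPM, was not called.

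Of the 9 genes for origins and the helicase, 5 were lower with MAR1 and none higher. That is 55.6% called, against 49.0% of all genes (22.6% higher and 26.5% lower). Under RLE, 3 of them (Mcm3, Mcm5 and Mcm7) were still called lower. Mcm7 was at 13.3, 9.76 and 9.92 CPM against 45.6, 52.8 and 49.4 CPM with isotype (4.47-fold lower, log2 -2.16 ± 0.32, adjusted p = 0.00032). Mcm3 was at 7.65, 8.15 and 7.67 CPM (3.74-fold lower, adjusted p = 0.00067). Mcm5 was at 13.4, 15.4 and 22.7 CPM (3.55-fold lower, adjusted p = 0.0014). All MAR1 libraries lay below all isotype libraries for these 3 ring subunits. Mcm6 was at 26.9, 26.9 and 16.4 CPM (2.28-fold lower, adjusted p = 0.014). Cdt1 was at 8.59, 6.34 and 6.46 CPM (2.58-fold lower, adjusted p = 0.0097). Mcm4, of the same ring, was at 39.9, 41.8 and 26.6 CPM (log2 -0.15 ± 0.32) and was not called, nor were Mcm2, Cdc6 and Gins2, with log2 fold changes from -0.59 to 0.16. Pcna was at 139, 106 and 72.7 CPM and E2f1 at 18.9, 16.3 and 6.31 CPM, both overlapping with isotype. Hells was at 17.4, 39 and 47 CPM and Uhrf1 at 31, 32.2 and 29.6 CPM, neither called under TMM (adjusted p = 0.1 and 0.057).

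Of the 22 mitosis genes, 9 were lower with MAR1 and 2 higher. That is 50% called, against 49.0% of all genes (22.6% higher and 26.5% lower). Top2a was at 26.4, 29.5 and 24.4 CPM in the MAR1 libraries (3.23-fold below isotype, log2 -1.69 ± 0.39, adjusted p = 0.0033). Cdc20 was at 8.51, 7.75 and 5.26 CPM (3.26-fold lower, adjusted p = 0.0022). Foxm1 was at 2.32, 1.91 and 1.95 CPM (4.22-fold lower, adjusted p = 0.0027). These 3, with Aurkb and Kif20a, were called lower under both scalings. Ccnb2 was at 6.96, 9.46 and 5.11 CPM (2.8-fold lower, adjusted p = 0.019). Tpx2, at 12, 11.3 and 8.27 CPM, Aurka, at 9.02, 4.93 and 4.21 CPM, and Bub1b, at 4.3, 6.34 and 7.36 CPM, were lower by about as much as each other (log2 fold changes from -1.14 to -1.01, adjusted p from 0.036 to 0.047). Mki67 and Cdk1 were not called and overlapped with isotype. Mki67 was at 67.1, 65.5 and 51.1 CPM (log2 -0.11 ± 0.30). Cdk1 was at 54.5, 38.4 and 22.5 CPM (log2 0.06 ± 0.31). Ccna2, at 40.7, 29.5 and 16.1 CPM, Plk1, at 7.13, 5.74 and 5.86 CPM, and Ube2c, at 82.3, 47.4 and 42.7 CPM, also overlapped and were not called. Ccnb1, at 9.8, 17.8 and 20.1 CPM, and Kif11, at 16.1, 14.7 and 11.1 CPM, lay below all isotype libraries without a call (adjusted p = 0.12 and 0.054). Bub1, Nusap1, Cenpe and Cenpf had log2 fold changes from -1.15 to -0.26.

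Within the MAR1 and the cKO group, Rrm1 and Tyms were ordered as the receptor gene share. In order of rising share, the MAR1 libraries stood at 3.88%, 7.55% and 9.38%, with Rrm1 at 498, 825 and 1013 CPM and Tyms at 345, 838 and 1034 CPM. The cKO libraries in the same order (replicates 2, 1 and 3) stood at 0.467%, 1.49% and 2.59%, with Rrm1 at 141, 183 and 334 CPM and Tyms at 87.4, 149 and 328 CPM. Over all 14 libraries, Mcm7 and Mcm3 were lowest in the 4 libraries with the highest shares, the MAR1 libraries and cKO replicate 3. These genes were picked by their small p between MAR1 and isotype, so their low place in the MAR1 libraries largely follows from that. With the log2 receptor share as a covariate, edgeR called 0 of all 20939 genes between MAR1 and isotype; the log2 change of Rrm1 was then 1.40 (adjusted p = 0.66) and that of Tyms 0.80 (adjusted p = 0.78). Every MAR1 library had a higher share than every isotype library, so share and antibody cannot be told apart.

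**Figure D4:**
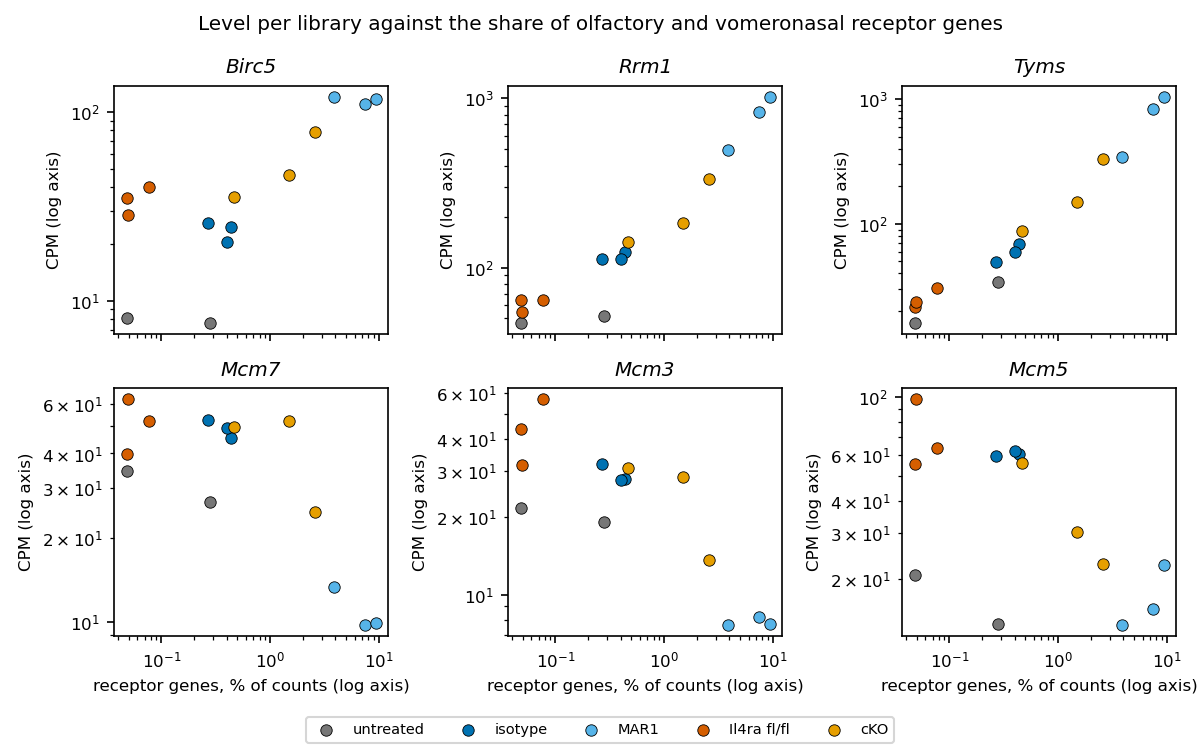
CPM (log axis) of Birc5, Rrm1, Tyms, Mcm7, Mcm3 and Mcm5 in each library against the share of counts in olfactory and vomeronasal receptor genes (percent, log axis), coloured by group. The genes are the members with the smallest p (edgeR) in each direction between MAR1 and isotype libraries. Rrm1 and Tyms are highest where the share is highest, in the MAR1 libraries at 3.88% to 9.38%, and Mcm3 and Mcm7 are lowest there. Their standing in the MAR1 libraries follows largely from how they were picked.

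Against the 49.0% of all genes called in this comparison, 3 of 30 other replication genes were higher with MAR1 (Pole, the catalytic subunit of polymerase epsilon, log2 3.51 ± 0.53, Prim2, the large primase subunit, 1.52 ± 0.30, and 1 other) and 6 lower (the thymidine kinase Tk1, -2.22 ± 0.40, the chromatin assembly subunit Chaf1b, -2.21 ± 0.48, and 4 others). Of 35 further mitosis genes, 6 were higher, among them Pttg1 (1.79 ± 0.35) and Racgap1 (1.47 ± 0.29, the partner of Kif23), and 8 lower, among them Kif4 (-2.91 ± 0.56) and Cdc25b (-1.59 ± 0.28). No inhibitor of cyclin-dependent kinases was higher and 4 of 7 were lower (Cdkn2c, Cdkn1c, Cdkn2d and Cdkn1a), the last at -1.23, and at 0.22 with the receptor share as a covariate. Of the G1 genes, Ccnd3 was higher and Ccnd1, Cdk4 and Myc were lower, and of 14 RB and DREAM genes 2 were higher and 7 lower, with E2f4 at -1.96 ± 0.30 and Tfdp1 at -1.97 ± 0.34. Basal keratinocyte markers took 0.527, 0.414 and 0.274% of counts in the MAR1 libraries, with 6 of 8 markers lower and none higher than with isotype. Of the other marker lists, dermal fibroblast markers (5 of 8 lower, 1 higher), leukocyte markers (4 of 8 lower), B cell markers (2 of 6 higher) and T cell markers (2 of 6 higher) also differed, with summed shares of 0.192, 0.137 and 0.141%, 0.0802, 0.0594 and 0.0426%, 0.00843, 0.0156 and 0.0228% and 0.0145, 0.0192 and 0.0282% with MAR1. With isotype these shares were 0.434, 0.362 and 0.36%, 0.111, 0.088 and 0.105%, 0.000957, 0.000658 and 0.000869% and 0.00203, 0.00111 and 0.00188%. Hair matrix markers had 2 of 10 higher. The part of these cell types in the result was not tested.

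Deletion of Il4ra in Pdgfra-expressing cells went with few calls among cell division genes. Between cKO and fl/fl libraries, 2 members rose (Rrm1 and Tyms) and 1 fell (Uhrf1), which is 7.50% of members against 18.7% of all genes called (12.7% higher, 5.97% lower). None of the 22 mitosis genes was called in edgeR, 2 of them had an unadjusted p under 0.05, and 11 of all 40 members did, beside 7356 of all 20939 genes. DESeq2 called 5 members, beside 6002 of 20068 genes. Groups did not overlap for 6 members above and 5 below, against 17.0% and 12.4% of all genes. Medians were -0.43 for replication and 0.22 for mitosis genes beside 0.03 for all genes. The replication median was -0.06 without fl/fl replicate 1, -0.12 without fl/fl replicate 3, -0.15 without cKO replicate 2 and 0.18 with only the third fl/fl library, where the median of all genes was 0.43, 0.51, 0.41 and 0.53. With RLE scaling 2 members were higher and none lower, beside 3884 of 20939 genes called, and the medians were -0.30 and 0.30 beside 0.15.

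Rrm1 was at 183, 141 and 334 CPM in cKO against 64.6, 64 and 54.8 CPM in fl/fl, 3.59-fold higher (log2 1.84 ± 0.35, adjusted p = 0.0043). Tyms was at 149, 87.4 and 328 CPM against 30.4, 21.7 and 23.9 CPM, 7.44-fold higher (log2 2.90 ± 0.52, adjusted p = 0.0036). All 3 cKO libraries lay above all fl/fl libraries for both genes, as they did for the receptor share. With that share as a covariate the log2 changes were 0.38 for Rrm1 (adjusted p = 0.92) and -0.20 for Tyms (adjusted p = 0.99). With only the cKO library of the lowest share they were 1.55 and 2.13 (adjusted p = 0.052 and 0.055). Uhrf1 was at 17.6, 21.2 and 18.5 CPM against 41.3, 39.2 and 21.6 CPM, 1.79-fold lower (log2 -0.84 ± 0.27, adjusted p = 0.046). Against the third fl/fl library alone, the one nearly free of B cell transcripts, its log2 change was 0.11 and not called.

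Of the other 15 replication genes, none was called between cKO and fl/fl. Mcm5 was at 30.3, 55.6 and 22.9 CPM and Mcm3 at 28.5, 30.8 and 13.6 CPM, with log2 fold changes of -0.995 ± 0.35 and -0.86 ± 0.32. Mcm6 was at 43, 66.9 and 22.9 CPM, Mcm7 at 52.1, 49.8 and 24.6 CPM and Mcm4 at 28.2, 45 and 42.1 CPM. Cdt1 was at 18.5, 17.3 and 10.4 CPM (log2 -0.94 ± 0.37, adjusted p = 0.089). In cKO replicate 3, the one with the highest receptor share, Mcm3, Mcm5, Mcm6, Mcm7 and Cdt1 were each at their lowest of the 3 libraries. Rrm2 was at 25.5, 34.9 and 23.9 CPM, below all fl/fl libraries (log2 -0.60 ± 0.25, adjusted p = 0.11). Hells was at 14.7, 25.6 and 19.4 CPM, above all fl/fl libraries (log2 0.94 ± 0.37, adjusted p = 0.086). Ccne1 was at 9.68, 9.03 and 6.07 CPM, below all fl/fl libraries, and Ccne2 at 10.2, 13.2 and 19.2 CPM. None of these gaps passed the test. Pcna was at 99.9, 148 and 133 CPM and E2f1 at 18.7, 11.2 and 14 CPM, both overlapping with fl/fl, and Mcm2, Cdc6 and Gins2 had log2 fold changes from -0.95 to -0.45.

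Mitosis genes spread widely among the cKO libraries. Mki67 was at 86.7, 104 and 81.2 CPM, above all fl/fl libraries but not called (log2 0.72 ± 0.30, adjusted p = 0.11). Cdk1 was at 44.4, 53.8 and 43.2 CPM, also above all fl/fl libraries (log2 0.50 ± 0.31, adjusted p = 0.26). Top2a was at 56.2, 113 and 36.3 CPM, Ccna2 at 30.7, 53.5 and 44 CPM and Kif11 at 27.7, 40.4 and 15.4 CPM, each highest in replicate 2. Birc5 was at 46.4, 35.5 and 78.9 CPM, highest in replicate 3. Among the entry genes, Ccnb1 was at 22.8, 47.9 and 8.36 CPM, Ccnb2 at 19.6, 32.8 and 13.2 CPM, Plk1 at 13.7, 15.5 and 10.7 CPM and Aurka at 16.5, 17.5 and 9.78 CPM. All 4 were highest in replicate 2 and lowest in replicate 3. Foxm1 was at 10.3, 7.59 and 5.6 CPM. Among the spindle genes, Aurkb was at 6.1, 16.6 and 4.06 CPM, Kif20a at 11.4, 20.4 and 2.12 CPM, Bub1b at 14.9, 17.4 and 7.36 CPM and Tpx2 at 21.5, 34.6 and 10.8 CPM. These 4 followed the same order, and Kif23, at 9.04, 9.81 and 8.3 CPM, varied less. Of the exit genes, Cdc20 was at 36.7, 37.3 and 18.3 CPM and Ube2c at 49.2, 57.1 and 66.3 CPM. Bub1, Nusap1, Cenpe and Cenpf had log2 fold changes from 0.26 to 0.80. For the 19 mitosis genes whose libraries overlapped with fl/fl, a difference was not detectable beyond this spread.

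**Figure D5:**
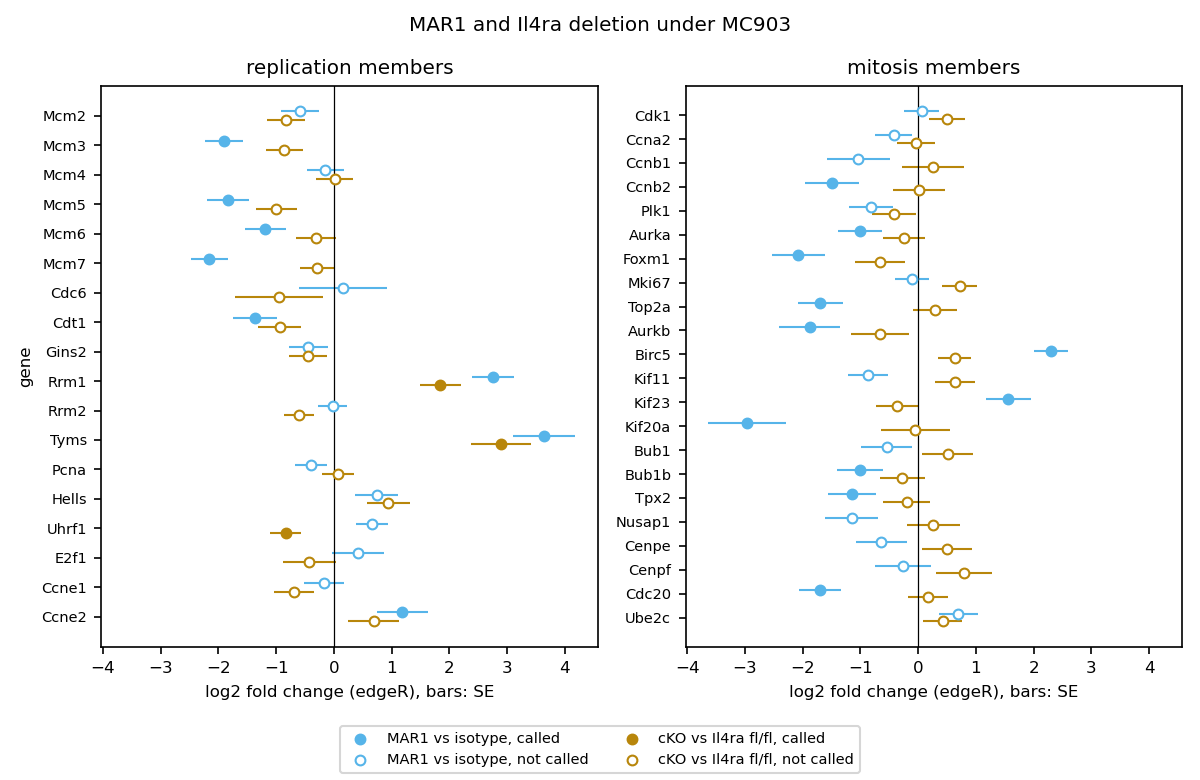
Log2 fold change ± SE (edgeR) of each replication gene (left) and mitosis gene (right) for MAR1 against isotype and for cKO against Il4ra fl/fl; filled points passed an adjusted p under 0.05. With MAR1 5 genes are higher and 14 lower under TMM scaling (8 and 8 under RLE), and in cKO Rrm1 and Tyms are higher and Uhrf1 is lower (none lower under RLE).

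Among the other pathway genes, cKO differed from fl/fl in Pole (log2 2.32 ± 0.50) and Tk1 (-1.28 ± 0.38) of 30 replication genes and in Cdc25c (1.75 ± 0.48) and Ncapg2 (1.08 ± 0.29) of 35 mitosis genes. Cdkn2d, Ccnd3, Myc and E2f4 were lower. Markers of B cells (3 of 6), T cells (4 of 6), leukocytes (5 of 8), skeletal muscle (5 of 8) and salivary gland (4 of 7) were lower in cKO, and none of these rose. In that order, their summed shares in fl/fl were 0.00014% to 0.0979%, 0.000388% to 0.0566%, 0.067% to 0.334%, 0.84% to 4.55% and 0.000563% to 1.93%. In cKO they were 0.00113% to 0.00487%, 0.00328% to 0.00777%, 0.0472% to 0.0699%, 0.00219% to 0.327% and 0.000902% to 0.0017%. In the third fl/fl library the B cell, T cell and salivary shares were each below those of cKO. Of the other lists, 1 basal keratinocyte and 1 basophil marker were higher and 1 dermal fibroblast marker was lower. Their part in the result was not tested.

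The effects of MAR1 and of the Il4ra deletion were then compared directly, as the cKO effect (cKO against fl/fl) minus the MAR1 effect (MAR1 against isotype), and 6 of the 40 members differed. Mcm7 (difference in log2 fold change 1.87 ± 0.44), Top2a (1.99 ± 0.54) and Cdc20 (1.88 ± 0.50) were lower with MAR1, whereas their cKO effects were -0.29 ± 0.30, 0.30 ± 0.38 and 0.17 ± 0.35. Kif23 (-1.92 ± 0.54) and Birc5 (-1.67 ± 0.41) were higher with MAR1, with cKO effects of -0.36 ± 0.38 and 0.63 ± 0.29. Uhrf1 (-1.50 ± 0.38) was lower in cKO and had a MAR1 effect of 0.66 ± 0.27. The 6 adjusted p ran from 0.029 to 0.044, and 7.96% of all genes differed. Under RLE scaling 3 members differed, beside 904 of all 20939 genes. These were Birc5, Kif23 and Uhrf1, all with a negative difference, against 3 positive and 3 negative under TMM. The median of all genes moved from 0.41 to -0.05. The count was 0 without isotype replicate 1, 2 or 3, with 1 gene of any kind called in each fit. It was also 0 without MAR1 replicate 3 (2 of 20373 genes called), fl/fl replicate 2 (129 of 20828) or cKO replicate 1 (502 of 20884). It was 3 without cKO replicate 2 (1671 of 20893), 10 without cKO replicate 3 (3292 of 20682) and 11 without fl/fl replicate 3 (4863 of 20902). The antibody and genetic experiments also differ in injections and age range, which cannot be told apart from the treatments. The same holds for total counts and for the receptor gene share. That share was 3.88% to 9.38% with MAR1 and 0.269% to 0.439% with isotype. It was 0.467% to 2.59% in cKO and 0.048% to 0.077% in fl/fl. Besides, fl/fl replicates 1 and 2 held B cell and salivary gland transcripts.

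Against untreated skin, Cdk1, Ccna2, Mki67, Birc5, Kif11 and Ube2c of the mitosis genes rose in both the cKO and the MAR1 libraries. So did Rrm1, Tyms, Hells and Ccne1 of the replication genes. In cKO, 13 members rose and none fell, 9 of 22 mitosis and 4 of 18 replication genes, against a background of 6.82% called, 3.86% higher and 2.96% lower. The cKO libraries lay above both untreated ones for 26 members, against 20.9% of all genes. Medians were 1.74 and 0.57 beside 0.06 for all genes. Cdk1 was 5.32-fold, Mki67 5.23-fold, Birc5 6.8-fold and Ube2c 4.36-fold above untreated skin (adjusted p = 0.0064, 0.0063, 0.0029 and 0.015), with Ccna2 3.39-fold and Kif11 4.35-fold higher (adjusted p = 0.024 and 0.017). The count was 3 when only these 5 libraries were fitted, beside 168 of 17976 genes called. Without untreated replicate 1 the mitosis and replication medians were 1.96 and 0.78, beside 0.08 for all genes. With only the second cKO library they were 2.34 and 0.91, beside 0.15. Top2a, Tpx2 and Cdc20 rose in cKO but were not called in the MAR1 libraries. In the MAR1 libraries, 14 members rose, 7 of 18 replication and 7 of 22 mitosis genes, and 2 fell (Mcm3 and Mcm7). That is 40% of members called, against 49.4% of all genes (23.4% higher and 25.9% lower). Besides the genes shared with cKO, Rrm2, Uhrf1, Ccne2 and Kif23 rose. Under RLE 20 members were higher and 1, Mcm7, was lower, beside 9905 of 20939 genes called, while the median of all genes moved from -0.02 to 0.54. Here Cdk1 was 4.35-fold, Mki67 3.54-fold, Birc5 14.7-fold and Ube2c 4.36-fold above untreated skin (adjusted p = 7e-04, 0.0014, 1e-04 and 0.0012). Both comparisons use the same untreated libraries as those above.

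Some members share exons with other genes in GENCODE M21, and whether counting used strand is not stated in the sources used here. An exon of 11 members overlaps another gene, in 9 cases a protein-coding one: Ccna2 (Exosc9), Ccne2 (Ints8), Cdc20 (Elovl1), Foxm1 (Tex52), Gins2 (Gse1), Kif20a (Cdc23), Mcm7 (Ap4m1 and Cops6), Nusap1 (Oip5) and Ube2c (Tnnc2, a muscle troponin). Counts of these members may hold reads of the partner, and Ccnb1, Ccnb2, Pcna and Tyms have pseudogene copies that could share reads with them. For the pair with Tnnc2, skeletal muscle markers took 0.840% to 4.55% of counts in fl/fl and at most 0.327% in cKO, and Ube2c was at 36.7 to 46.1 CPM and 49.2 to 66.3 CPM there.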

How the data were processed

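RNA of 14 neck skin libraries was analysed from the deposited table of estimated counts per gene symbol. Per the submitters' processing notes the tools were Salmon 1.2.1 and DESeq2 1.44.0 with GRCm39; which of them made the table is not given in the sources used here. The estimated counts, deposited by the authors without normalization, were rounded to whole numbers. Of 35328 entries, 1 named no gene (0.0137% to 0.913% of counts) and was left out; 0 columns were of no listed sample.

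Genes passing filterByExpr (20939) were fitted in edgeR 4.0.16 (R 4.3.3, TMM scaling, robust quasi-likelihood test, 1 model of 5 group means, 9 residual degrees of freedom, common dispersion 0.361). P-values were two-sided and adjusted by Benjamini-Hochberg over all genes tested; a gene was called at an adjusted p under 0.05. SE is the log2 fold change divided by the square root of F. CPM use TMM-scaled library totals. P-values measure the spread between libraries, which for the 2 untreated ones may be technical, since their names differ only by a suffix. Libraries of the same group differed by more than sampling noise (chi-square over degrees of freedom 18.5 to 1037), so none was merged.

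The 40 members, the other pathway lists and the tests were chosen with earlier results of these data known. Values in every library are given for members called between MAR1 and isotype, between cKO and fl/fl or for the difference of these effects, and for up to 3 members of each role with the smallest p in each control comparison with untreated skin; the rest are given by range. Up to 4 genes of smallest p are named per other list. Alternatives tried were RLE scaling, no filter, a filter of 1 CPM in 3 libraries, DESeq2 1.42.0, fits of only the groups compared, the untreated libraries summed, a replicate block, the receptor gene share as covariate, pseudocounts of 0.1 and 5 for the class level (1 as reported), and leaving out each library. The calls of edgeR were also tried on counts simulated with the same mean in every group, apart from few changed genes. In these data 49.0% of genes were called between MAR1 and isotype, so the simulation cannot vouch for these calls. Promoters came from RefSeq on GRCm38.p6, searched on both strands with Python 3.11.15; figures were drawn with matplotlib 3.10.9.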

Additional observations from a re-analysis of the deposited data

Results flagged for a closer look

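For 6 cell division genes the effect of the Il4ra deletion (cKO against fl/fl) differed from the effect seen in the libraries labelled MAR1 (against isotype), by a test of the difference itself in edgeR. Mcm7 differed by 1.87 ± 0.44 on the log2 scale (SE, adjusted p = 0.029), with effects of -0.29 ± 0.30 in cKO and -2.16 ± 0.32 with MAR1. For Top2a the difference was 1.99 ± 0.54 (adjusted p = 0.041), from 0.30 ± 0.38 and -1.69 ± 0.39. Cdc20 differed by 1.88 ± 0.50 (adjusted p = 0.04), from 0.17 ± 0.35 and -1.70 ± 0.36. The other 3 differences were negative. Birc5 differed by -1.67 ± 0.41 (adjusted p = 0.033), from 0.63 ± 0.29 and 2.30 ± 0.30. For Kif23 the difference was -1.92 ± 0.54 (adjusted p = 0.044), from -0.36 ± 0.38 and 1.56 ± 0.38. Uhrf1 differed by -1.50 ± 0.38 (adjusted p = 0.036), from -0.84 ± 0.27 and 0.66 ± 0.27. Under RLE scaling Mcm7, Top2a and Cdc20 were no longer called. Of all genes tested, 7.96% differed. Leaving out each library in turn gave counts of 0 to 11 members, beside 1 to 4863 genes of any kind called. The count was 0 without any single isotype library, MAR1 replicate 3, fl/fl replicate 2 or cKO replicate 1. Genes of any kind called in these fits numbered 1 without each isotype library, and 2, 129 and 502 without the others in that order. Against the third fl/fl library alone, the cKO effect of Uhrf1 was 0.11.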

How the results depend on the processing

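Counts of called members are given here with the calls over all genes in brackets, out of 16893 to 20939 tested. Between isotype and untreated skin (8 members, 644 genes) the count was 19 with DESeq2 (2200) and 20 with only the groups compared (3553). With the receptor gene share as covariate it was 13 (668). Between fl/fl and untreated skin (8 members, 360 genes) it was 23 with DESeq2 (2125) and 0 with only the groups compared (0). Between cKO and untreated skin (13 members, 1428 genes) it was 24 (4850) and 3 (168) in these settings, and 6 with the receptor share (125). Between MAR1 and untreated skin (16 members, 10343 genes) it was 25 with DESeq2 (11586) and 0 with the receptor share (3). With that share it was 0 (0) between MAR1 and isotype (19 members, 10270 genes). Between cKO and fl/fl (3 members, 3906 genes) it was 0 with the share (14) and 5 with DESeq2 (6002). For the difference of the 2 effects (6 members, 1667 genes) it was 3 under RLE (904). Where a setting left 1 library in a group, medians are given in place of counts. With the untreated libraries summed, the mitosis and replication medians were 1.54 and 0.75 (isotype), 1.19 and 0.33 (fl/fl) and 1.81 and 0.66 (cKO).

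With the replicate number as a block, 4 members were called between isotype and untreated skin and 1 for the difference of the effects. Genes of any kind called then numbered 253 and 537 of 20939. Same-numbered libraries did not deviate together, so the pairing is by number only. Correlations were -0.14, -0.09 and 0.06 for isotype and MAR1, and 0.08, 0.03 and -0.06 for fl/fl and cKO. The block moved no other count of members by over 1.5 times.

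The mitosis median minus the replication median kept its sign in every setting run. With the receptor share it was 1.25 between isotype and untreated skin (0.82 as reported), 0.56 for fl/fl (0.87), 1.14 for MAR1 (0.46), 1.63 for cKO (1.18), -0.066 between MAR1 and isotype (-0.78) and 1.27 between cKO and fl/fl (0.65). With only the third fl/fl library it was 1.21 for fl/fl against untreated skin, 0.23 between cKO and fl/fl and 0.60 for the difference of effects, and with only the second cKO library 1.43 against untreated skin and 1.49 for the difference of effects (1.18). At a pseudocount of 5 the class difference, with Rrm1 and Tyms included, was -0.93 untreated and -0.93 with MAR1.

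Leaving out each library in turn gave counts of 0 to 3 (isotype against untreated), 0 to 9 (fl/fl), 11 to 15 (MAR1), 2 to 17 (cKO), 14 to 17 (MAR1 against isotype), 2 to 5 (cKO against fl/fl) and 0 to 11 (difference of effects). In the same order the median differences were 0.66 to 0.99, 0.70 to 1.00, 0.13 to 0.68, 0.84 to 1.26, -0.88 to -0.61, 0.29 to 0.82 and 0.78 to 1.39. Over all genes tested, calls also varied when 1 MC903 library was left out. Against untreated skin they numbered 108 to 132 (isotype), 342 to 430 (fl/fl), 7521 to 10250 (MAR1) and 391 to 2013 (cKO). They numbered 7341 to 10259 between MAR1 and isotype, 1958 to 4362 between cKO and fl/fl and 1 to 4863 for the difference. The class differences were -1.26 to -1.12 untreated, -0.68 to -0.48 with isotype, -1.19 to -1.04 with MAR1, -0.69 to -0.51 in fl/fl and -0.58 to -0.23 in cKO.

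Signs changed for single genes. Rrm2 between MAR1 and isotype was 0.57 with DESeq2. With the receptor share Aurka was 0.19, Aurkb 0.18, Ccnb2 0.90, Cdkn1a 0.22, Mcm6 0.11 and Tpx2 0.98 between MAR1 and isotype, Cdkn1a 0.72 between MAR1 and untreated skin, and Pole -0.87 and Tyms -0.20 between cKO and fl/fl. With only the third fl/fl library Ccnd3 was 0.42 and Uhrf1 0.11 between cKO and fl/fl. The cause was not tested for any of these. The settings with only the third fl/fl or only the second cKO library were chosen after seeing the data; a lone library is assumed to vary like the other groups.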
